A study of Nannochloropsis oceanica with 6 samples.

Results

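Transcripts of 5 genes annotated to make or cut wall glucans were followed in the oil-storing marine microalga Nannochloropsis oceanica, strain IMET1. The genes include the cellulose synthases bcsAI (NO07G03720) and dcsA (NO28G00320) and the endoglucanases celD (NO12G01710) and NO17G00920, which has no gene name. The last is the glucosidase exgA (NO10G02250), named for an enzyme that acts on beta-1,3-glucans. The genes were taken by gene ID from the 10481 genes of the deposited tables, and all 5 were measured in every library. The assay was RNA sequencing of 6 separate cultures, 3 deprived of nitrogen (ND, nitrogen deprivation) and 3 supplied with it (NR, nitrogen repletion). IMET1 was first grown in f/2 seawater medium with 1 g/L NaNO3 at 25 °C. Light was continuous at 50 µmol/m2/s, and the gas held 1.5% CO2. Washed log-phase cells then entered 800 mL of nitrogen-free f/2 (ND) or f/2 (NR) at an OD750 of 2.5, and were harvested 72 h later. The comparison asks how nitrogen supply alters the transcripts of each gene, in a study concerned with lipid production.

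Cellulose is a chain of beta-1,4-linked glucose that a membrane-bound synthase extends with glucose taken from UDP-glucose. In Nannochloropsis a cellulose layer lies under an outer layer of algaenan, a resistant hydrocarbon polymer. Endoglucanases cut beta-1,4-glucans inside the chain, and in land plants a membrane-anchored endoglucanase is needed for normal cellulose synthesis. Glucan 1,3-beta-glucosidases release glucose from the ends of beta-1,3-glucans, a class of polymer that stramenopile algae use as a soluble reserve. The names come from deposited matches to Swiss-Prot, a database of described proteins. These were a Komagataeibacter cellulose synthase for bcsAI and a Dictyostelium one for dcsA. They were a Thermobifida endoglucanase for celD, a Paenibacillus endoglucanase for NO17G00920 and an Aspergillus glucosidase for exgA. A second deposited description named proteins of other organisms, such as Klebsormidium for both synthases. The deposited gene ontology terms of exgA name a mannanase activity and not a glucosidase, so its substrate in this alga rests on likeness alone. Other models carry the same names, and they are told apart here by gene ID.

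Library totals were 4383211 to 5693513 estimated counts in ND and 3972986 to 4563940 in NR. Deposited length minus effective length, a measure of fragment size, was read at exgA (NO10G02250) alone. It was 266.8 to 271.6 bases in ND and 249.4 to 255.2 bases in NR, and its part in the results was not tested. Levels are given in TPM, abundances scaled for gene length and to a fixed total per library, which can be compared between genes of a library. A change is the log2 ratio of ND to NR with its standard error, from edgeR's quasi-likelihood test over 9329 genes with Benjamini-Hochberg adjustment at 0.05. That fit also scales the libraries for composition, which TPM does not: without this scaling the median change of all genes was 0.34 in place of 0.02. Changes are therefore relative to the typical gene and lie below the ratio of the TPM values. After a level ± is the SD over 3 cultures, and after a change it is the standard error.

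All 5 genes were lower in nitrogen-deprived cells, by 4.07 to 15.3 times. Of all genes tested, 71.2% passed the test in either direction, 35.5% as lower in ND, and 4.86% were lower by at least 4 times. The 5 genes were chosen with these results known, so their count is a description and nothing is read from its distance to those shares. In each of the 5 the highest ND library lay below the lowest NR library, which held for 36.2% of all genes in normalised counts, while 73.5% of all genes did not overlap either way (79.4% in TPM). In RNA from whole cultures, a change in all cells and one in part of the cells cannot be told apart. Both cellulose synthases had larger fitted falls than either endoglucanase, and exgA lay between them.

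**Figure D1:**
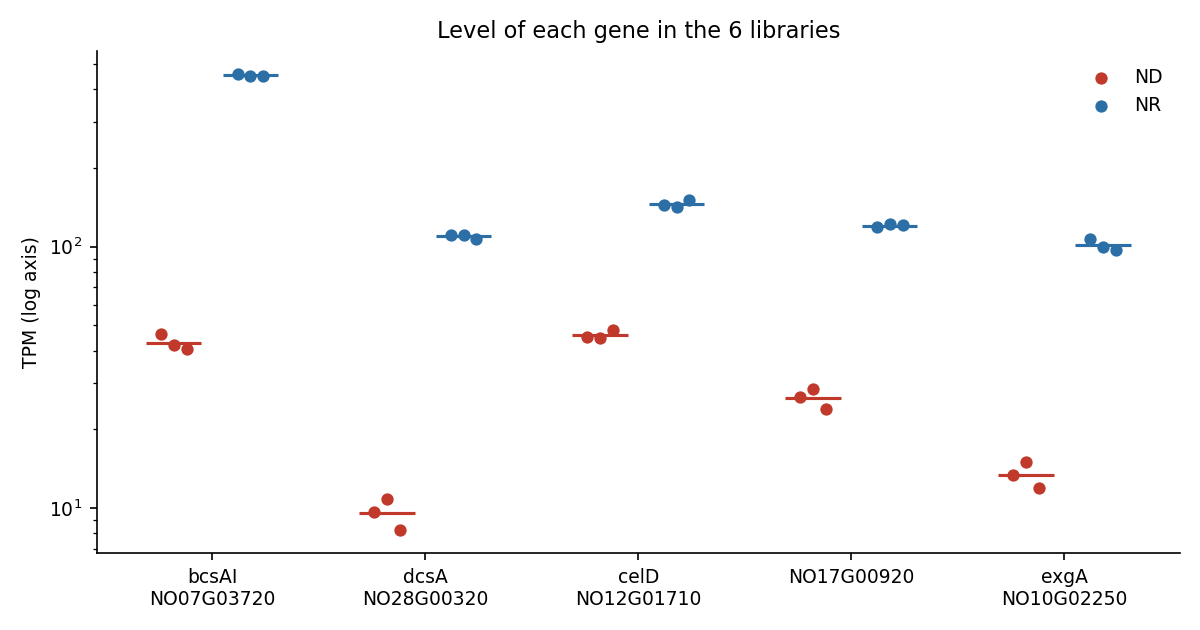
Level of the 5 genes in each library, in TPM on a log axis, with ND libraries to the left of NR libraries and a line at each mean (n = 3 cultures per condition). The ND points lie below the NR points in each gene, and bcsAI stands highest in NR with 450.5 to 459.6 TPM but is near celD in ND.

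The synthase bcsAI, the catalytic subunit that polymerises glucose, had 46.4, 42.0 and 40.5 TPM in ND cultures 1 to 3, against 459.6, 451 and 450.5 TPM in NR cultures 1 to 3. Its groups were far apart, and the 3 NR values differed by little. The mean was 43.0 ± 3.06 TPM in ND and 454 ± 5.00 TPM in NR (SD, n = 3 each), and the fitted change was -3.79 ± 0.06 (edgeR adjusted p = 2.64e-21), 13.8 times lower. It ranked 10 of all genes by p-value and 120 by size of fall.

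The second synthase, dcsA, is annotated with the same activity and had 9.63, 10.8 and 8.22 TPM in ND, against 110.9, 111.0 and 107 TPM in NR. It was the least abundant of the 5 genes in ND. The change was -3.94 ± 0.09 (edgeR adjusted p = 5.48e-19), 15.3 times lower. Its estimated counts were not whole in 4 of 6 libraries, and in those 4 libraries the fractional part was made whole by that of the model next to it in gene ID, NO28G00330, which has no description. That model held 0, 0.58 and 2.87 counts in ND and 0, 6.68 and 11.4 counts in NR. With both models summed, the change was -3.93.

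The endoglucanase celD, a hydrolase of internal cellulose bonds, had 45.1, 44.6 and 48.0 TPM in ND, against 144.5, 142 and 151 TPM in NR. This was the smallest fall of the 5, with a change of -2.02 ± 0.06 (edgeR adjusted p = 2.65e-17). The other endoglucanase, NO17G00920, which matches a green algal cellulase, had 26.6, 28.7 and 23.9 TPM in ND, against 119, 122 and 121 TPM in NR. Its change was -2.56 ± 0.08 (edgeR adjusted p = 6.00e-17).

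Counts of NO17G00920 were not whole in any of the 6 libraries, and in all 6 they were complemented by those of NO17G01000, another endoglucanase with the same description. The partner NO17G01000 had 10.2, 10.3 and 19.3 estimated counts in ND and 266, 157 and 170 counts in NR, against 147, 179 and 172 counts in ND and 710, 640 and 629 counts in NR for NO17G00920. Part of the reads was thus divided between similar models and each single value is uncertain. The sum of both models changed by -2.83, more than NO17G00920 alone.

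The glucosidase exgA, an exo-acting enzyme by its annotation, had 13.3, 15.0 and 11.9 TPM in ND, against 106.7, 100.1 and 97.5 TPM in NR. The groups were again separate, and the change was -3.30 ± 0.11 (edgeR adjusted p = 2.22e-16), 9.82 times lower. The authors' deposited table of ND against NR holds 2057 of the 10481 genes, with a smallest absolute log2 change of 1.0. Its largest FDR is 0.0498. All 5 genes are in it, with log2 changes of -3.80 for bcsAI, -3.95 for dcsA, -2.04 for celD, -2.58 for NO17G00920 and -3.31 for exgA. That table was made from the same 6 libraries, so it is not independent of the values above.

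The order of the levels differed between conditions. In ND, celD (45.9 ± 1.86 TPM) and bcsAI (43.0 ± 3.06 TPM) were the highest and overlapped. They were followed without overlap by NO17G00920 (26.4 ± 2.37 TPM), exgA (13.4 ± 1.53 TPM) and dcsA (9.55 ± 1.29 TPM). In NR, bcsAI was highest, followed by celD (146 ± 4.63 TPM), NO17G00920 (120.5 ± 1.38 TPM), dcsA (109.8 ± 1.99 TPM) and exgA (101.4 ± 4.77 TPM). No neighbours in the NR order overlapped, although dcsA and exgA came within 1 TPM of each other in their nearest libraries.

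Ratios of counts within a library, which do not depend on the scaling between libraries, were compared for the 10 pairs of these genes. The log2 ratio of bcsAI to dcsA was 2.33 ± 0.20 in ND and 2.18 ± 0.02 in NR (SD, n = 3 each), with overlapping libraries (difference 0.15, two-sided exact permutation p = 0.4, adjusted p = 0.4). In the other 9 pairs the libraries did not overlap. With 3 libraries against 3 the exact permutation test cannot go below p = 0.1, which each of the 9 pairs reached (adjusted p = 0.111). The largest shift was that of dcsA to celD, at -2.50 ± 0.27 in ND and -0.59 ± 0.07 in NR. The ratio of bcsAI to celD was -0.17 ± 0.13 in ND and 1.58 ± 0.06 in NR, and that of bcsAI to exgA was 2.80 ± 0.16 in ND and 3.30 ± 0.05 in NR. The ratio of the endoglucanases, celD to NO17G00920, was 1.39 ± 0.19 in ND and 0.86 ± 0.05 in NR.

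Each of the 5 genes belongs to a family in the deposited KEGG annotation, whose other models differed in the size and direction of their changes. The cellulose synthase ortholog covers 4 models. Besides bcsAI and dcsA these are bcsA (NO11G01690) and its neighbour by ID NO11G01700, which is listed at 0 in all 6 libraries. The synthase NO11G01690 had 118, 125.0 and 128 TPM in ND, against 105.7, 106.9 and 113 TPM in NR. Its fitted change was -0.17 ± 0.05 (edgeR adjusted p = 0.004) and became 0.15 with library totals alone, so its direction depended on the scaling.

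Summed TPM of the cellulose synthases was 174, 178 and 177 in ND, against 676, 669 and 671 in NR. The sum in ND was 0.262 of that in NR by TPM (exact permutation p = 0.1, the smallest possible). Within that sum bcsAI held 26.6%, 23.6% and 22.9% in ND and 68.0%, 67.5% and 67.1% in NR. The share of dcsA was 5.41% ± 0.72 in ND and 16.3% ± 0.29 in NR (SD, n = 3 each). The share of NO11G01690 was 70.2% ± 2.31 in ND and 16.2% ± 0.63 in NR, so this synthase held the largest share in ND and bcsAI in NR. Shares of a sum are not independent of each other, and each comparison had an exact permutation p of 0.1.

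**Figure D2:**
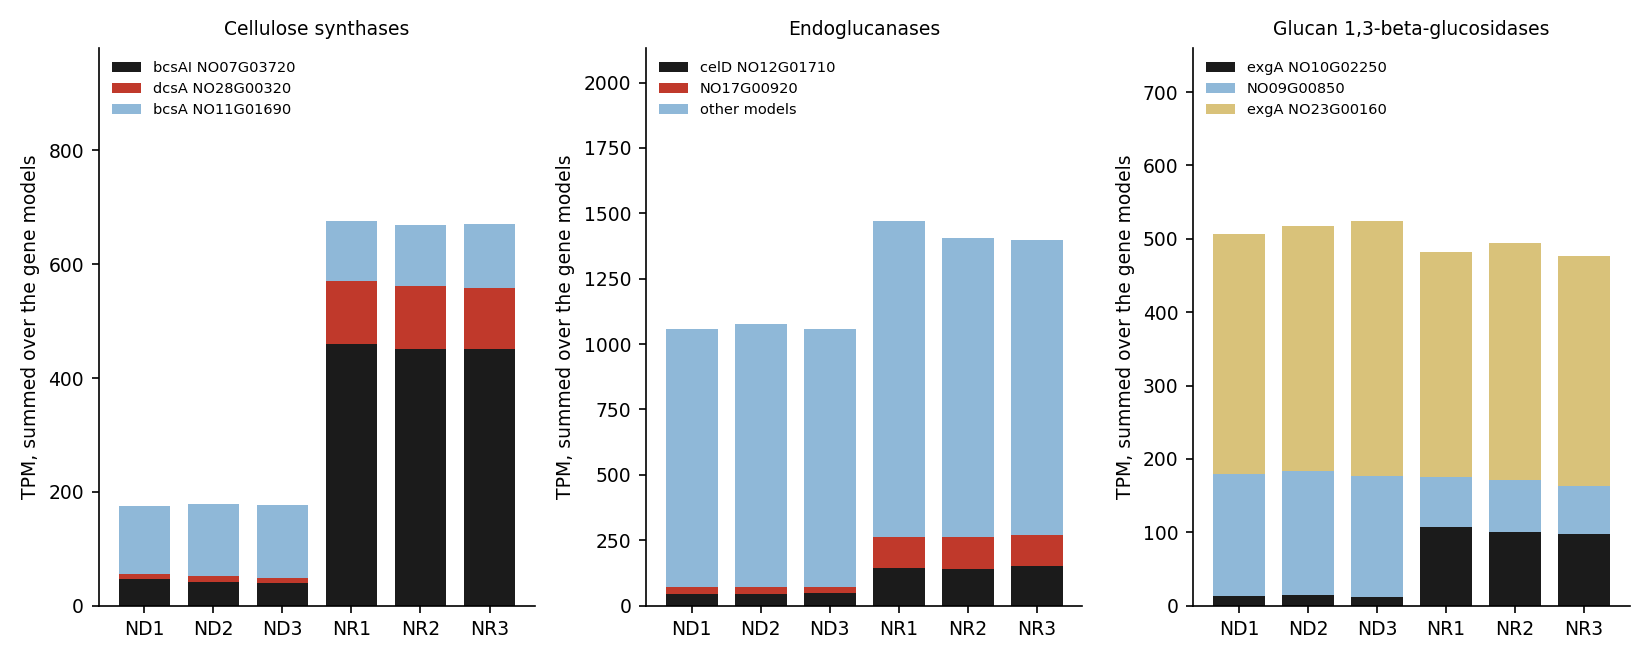
TPM of the gene models of each family, stacked for each library, with ND libraries left of NR libraries. Black and red segments are the 5 genes and blue and yellow segments the other models of the family. The cellulose synthase stack reaches 174 to 178 TPM in ND and 669 to 676 TPM in NR, while the glucosidase stacks are of similar height in both conditions.

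The endoglucanase ortholog covers 21 models, of which 18 had enough counts to be tested. Of these, 12 were lower, 3 were higher and 3 did not pass the test, beside 35.5% lower and 35.7% higher over all genes. With library totals alone 12 were lower and 6 higher, beside 23% lower and 54.4% higher over all genes. The 3 models that had not passed were then called higher. Besides celD and NO17G00920, falls ran from -4.48 ± 0.22 for NO17G01000, which shares reads with NO17G00920, to -0.49 ± 0.08 for NO08G02410. The endoglucanase NO04G04290 fell by 3.40 on the log2 scale, more than either endoglucanase of the 5 genes, with 8.59 ± 1.72 TPM in ND and 70.3 ± 1.27 TPM in NR. Other models named celD, NO06G01190 (-1.35 ± 0.07) and NO03G05340 (-1.12 ± 0.08), fell less than NO12G01710, and a further celD, NO16G03150, did not pass (-0.07 ± 0.06, edgeR adjusted p = 0.277, shared reads).

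Further falls in this family were those of NO08G00040 (-1.19), NO13G03350 (-1.05), celF (NO27G01700, -1.03), engXCA (NO08G04330, -0.90) and eglA (NO27G01690, -0.73). In contrast, NO10G03870 rose to 28.1 ± 2.91 TPM in ND, against 6.19 ± 1.17 TPM in NR (1.81 ± 0.17, edgeR adjusted p = 6.91e-09). Rises were also found for engXCA (NO28G00810, 0.84 ± 0.20) and NO01G04050 (0.57 ± 0.06), the most abundant endoglucanase in ND at 180.0 ± 11.1 TPM, against 94.1 ± 3.20 TPM in NR. The endoglucanases eglA (NO12G00250, 0.12 ± 0.06) and NO26G01190 (0.01 ± 0.10) did not pass, and were 0.44 and 0.33 with library totals alone, where both were called higher.

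Summed over the 21 models, endoglucanases had 1064 ± 10.3 TPM in ND and 1424 ± 40.7 TPM in NR. The part held by celD and NO17G00920 together was 6.80% ± 0.02 in ND and 18.7% ± 0.77 in NR. The share was 6.77% to 6.81% over the ND libraries and 17.9% to 19.5% over the NR libraries, so the groups did not overlap (exact permutation p = 0.1, the smallest possible).

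The glucosidase ortholog covers 3 models. The most abundant, another exgA (NO23G00160), had 336.8 ± 10.4 TPM in ND and 313.9 ± 8.57 TPM in NR, with a change of -0.27 ± 0.05 (edgeR adjusted p = 5.41e-05) that became 0.05 with library totals alone. The third model, NO09G00850, rose to 166 ± 1.95 TPM in ND, against 68.7 ± 2.91 TPM in NR (0.91 ± 0.05, edgeR adjusted p = 5.54e-12). The share of exgA NO10G02250 in the family was 2.60% ± 0.31 in ND and 21.0% ± 1.05 in NR. Summed TPM of the 3 models was 507 to 524 in ND and 476 to 495 in NR. The mean sum was 6.69% higher in ND by TPM but 0.856 of the NR sum once the composition scaling was applied, so no direction of the sum is given.

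**Figure D3:**
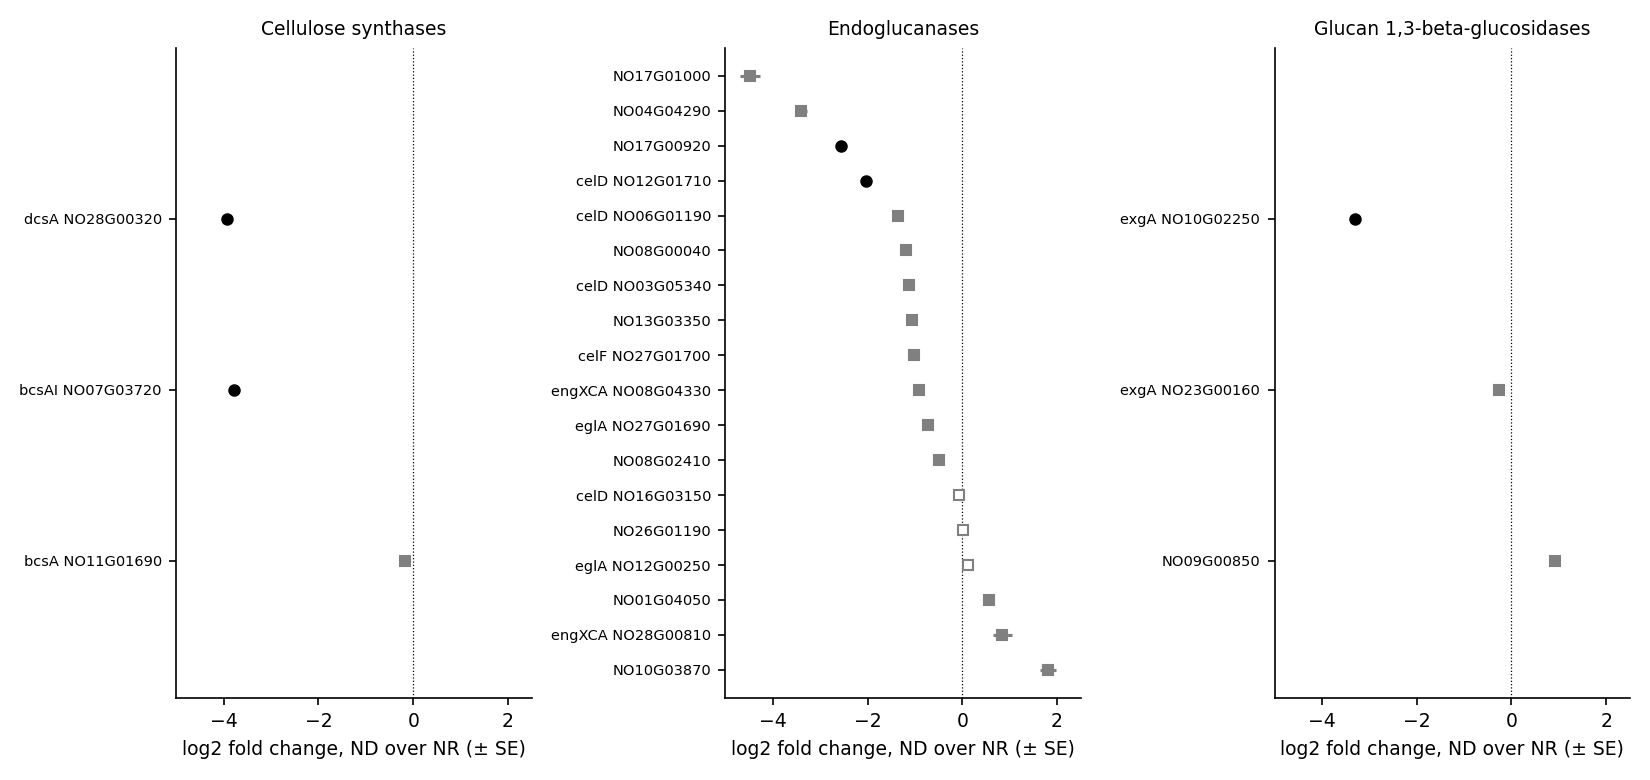
Log2 ratio of ND to NR with its standard error for the tested models of each family. Circles mark the 5 genes, squares the other models, and open symbols a change that did not pass the test. Cellulose synthases run from -3.94 to -0.17, endoglucanases from -4.48 to 1.81 and glucosidases from -3.30 to 0.91.

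Shared reads marks a model whose counts were not whole in at least 1 library. In addition, 4 lists of related genes were matched by words in the deposited names and descriptions, with the 5 genes left out. The first list includes the other models of the families above, so its counts partly repeat theirs. Genes matched as the same kind of enzyme numbered 30, and 25 were tested. Of these, 15 were lower and 7 higher, with a median change of -0.49. Over all genes 35.5% were lower and 35.7% higher, with a median of 0.02. Without the composition scaling 13 of the 25 were lower and 11 higher, beside 23% lower and 54.4% higher over all genes. Members of this list outside the families were cbhC (NO23G00130, -1.06 ± 0.06), named for a fungal cellobiohydrolase, celB (NO05G00090, -1.03 ± 0.06, shared reads) and the cellulase or esterase celE (NO14G02760, -0.59 ± 0.10). Others were ARB_02797 (NO29G00350, 0.94 ± 0.09, shared reads), named for a fungal glucosidase, and MAN2 (NO02G00720, 0.72 ± 0.20) and MAN5 (NO07G04100, 0.63 ± 0.11, shared reads). The last pair are annotated as mannanases, which cut mannan and not cellulose, yet they are counted among the 7 higher.

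Of other genes of beta-glucan metabolism, 6 of 15 tested were lower (40%) and 6 higher (40%). Over all genes 35.5% were lower and 35.7% higher, so these shares were near those of all genes. Without the scaling 6 were lower and 9 higher, beside 23% lower and 54.4% higher over all genes. The callose synthase CALS3 (NO03G02550), which in plants makes a beta-1,3-glucan, had 80.4 ± 1.78 TPM in ND and 122 ± 2.64 TPM in NR (-0.96 ± 0.05). The beta-glucosidase BGLU42 (NO04G04860) changed by -1.22 ± 0.06. In contrast KRE6 (NO16G00500), which in yeast takes part in beta-1,6-glucan synthesis, had 160.2 ± 2.92 TPM in ND and 58.5 ± 1.82 TPM in NR (1.06 ± 0.07). The model ce13 (NO21G02520, shared reads) changed by 1.09 ± 0.12. It is described both as a cellobiose epimerase and as a MOTHER OF FT AND TFL1-like protein.

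The next list holds genes that make or move nucleotide sugars, among them the UDP-glucose used by cellulose synthase. Of 52 tested, 34 (65.4%) were lower and 5 (9.62%) higher, with a median of -0.48. Over all genes 35.5% were lower and 35.7% higher. Without the scaling 21 (40.4%) were lower and 11 (21.2%) higher, beside 23% lower and 54.4% higher over all genes. The size of this count thus depended on the scaling. The UDP-sugar pyrophosphorylase USP (NO02G03080) had 40.2 ± 1.97 TPM in ND and 144.3 ± 5.30 TPM in NR (-2.21 ± 0.07). Other models with the name USP changed less. They were NO01G01100 (-0.56 ± 0.15, edgeR adjusted p = 0.0023) and NO01G01090, which did not pass (-0.22 ± 0.14, edgeR adjusted p = 0.185). The model NO13G01280, described both as UDP-glucose pyrophosphorylase and as phosphoglucomutase, changed by -1.66 ± 0.05. Chosen after their values were seen, the phosphoglucomutase PGM1 (NO13G01290, -1.48 ± 0.07) and the UDP-glucose pyrophosphorylase Ugp2 (NO02G01170, -0.72 ± 0.07) also fell. Among the rises, PGM3 (NO12G00110) and the transporter SLC35A3 (NO08G01090, shared reads) had the smallest p-values. PGM3, an enzyme of UDP-N-acetylglucosamine synthesis, had 85.7 ± 7.68 TPM in ND and 10.5 ± 1.08 TPM in NR (2.67 ± 0.11). The transporter SLC35A3 had 144.7 counts over the ND libraries and none over the NR libraries. It was thus at least 32.5-fold higher in ND, taking 3 counts over all NR libraries as the floor.

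Other glycosidases showed 8 of 21 lower (38.1%) and 6 higher (28.6%), with a median of -0.04. Over all genes 35.5% were lower and 35.7% higher. Without the scaling 7 were lower and 11 higher, beside 23% lower and 54.4% higher over all genes. The falls with the smallest p-values were those of rex8A (NO04G02180, -0.94 ± 0.06), named for a xylanase, and the beta-mannosidase MANBA (NO07G04090, -0.78 ± 0.05). The rises with the smallest p-values were those of galA (NO02G03320, 0.72 ± 0.10), named for an alpha-galactosidase, and agdD (NO14G00510, 1.10 ± 0.15), named for an alpha-xylosidase. The list also holds models named carnosine N-methyltransferase, which matched through a second description.

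**Figure D4:**
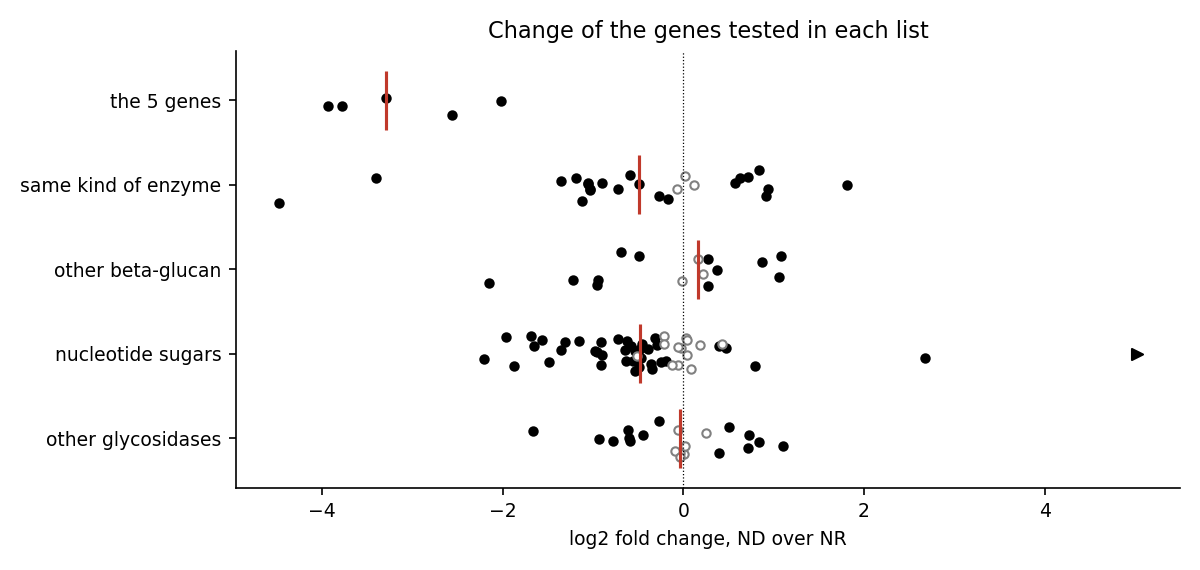
Log2 ratio of ND to NR for the tested genes of each list. Filled points passed the test, open points did not, red lines are medians, and the arrowhead is SLC35A3 placed at its lower bound. The 5 genes lie between -3.94 and -2.02, and the 4 lists have medians of -0.49, 0.16, -0.48 and -0.04 from top to bottom.

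Deposited transcript lengths, which are averages over a gene's transcripts, were compared for the 3 of the 5 genes that have more than 1 transcript. For bcsAI, with 2 transcripts, the length was 3267, 3291 and 3291 bases in ND and 3325, 3322 and 3307 bases in NR. For dcsA, also with 2 transcripts, it was 2968, 3004 and 2955 bases in ND and 3078, 3045 and 3048 bases in NR. For both synthases every ND length was below every NR length, which held for 9.27% of the 3160 genes compared. Neither passed limma's test over these genes, which have several transcripts and 50 counts or more per library (log2 ratio -0.02, limma adjusted p = 0.154 for bcsAI, and -0.04, limma adjusted p = 0.0858 for dcsA), in which 1.46% of the genes passed as shorter in ND and 3.73% in either direction. The lengths of celD overlapped between conditions (limma adjusted p = 0.527).

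Genes whose pattern over the 6 libraries was most like each gene were found by the root mean square distance between centred log2 profiles, as a description. Nearest to bcsAI were Srrd (NO11G03460, distance 0.08, shared reads), named for a light-response protein of plants, and the protein kinases pkgB (NO15G03170, 0.11, shared reads) and nek2 (NO26G01070, 0.11). Nearest to dcsA were Srrd again (0.10), the fatty acid elongase elo-3 (NO12G02800, 0.10) and the antenna protein FCPE (NO09G00450, 0.11, shared reads). The endoglucanase celD was nearest to the PXMP2/4 family protein NO04G02750 (0.04), the protease nep1 (NO07G00760, 0.05) and the vesicle transport GTPase RAB1B (NO08G03040, 0.06). For NO17G00920 they were AGRN (NO10G03090, 0.06), MYB119 (NO18G02390, 0.08), named for a plant transcription factor, and the ABC transporter NO07G03700 (0.08). For exgA they were the protein kinase trc (NO04G04670, 0.04), crq (NO27G01350, 0.09) and the endoglucanase NO04G04290 (0.11). The libraries form 2 groups, so these distances mostly measure how close the changes between conditions are.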

How the data were processed

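RNA from 3 ND and 3 NR cultures was extracted with Trizol and made into Illumina libraries, per the labels' protocols. The tools listed in the submitters' processing notes include STAR, StringTie, featureCounts and edgeR, while versions and genome build were not given in the sources used here. The authors deposited an expected count per gene that was not normalised, per the file headers. They also deposited TPM values, scaled to a fixed total per library, and FPKM values, which are scaled by depth and effective length. The deposited transcript length is another column, averaged over the transcripts of a gene. The authors' deposited comparison holds 2057 genes, each with its FDR, p-value and log2 change.

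After rounding, expected counts of all genes entered edgeR's quasi-likelihood test (version 4.0.16, R 4.3.3) with trimmed-mean scaling, filterByExpr as the filter and no block. The standard error is the absolute log2 change over the square root of F. Ratios between genes, with 0.5 added to counts, and family values used two-sided exact permutation tests. Whole counts were judged within 0.005, and complementary fractions within 0.015. Counting floors cover counting error only. The test across genes was checked on simulated data in which few genes changed. That check does not cover the scaling where most genes change. In pairs of libraries of a condition chi-square per degree of freedom was 1.73 to 3.05, so none duplicates another. Alternatives used DESeq2 1.42.0 and limma 3.58.1.

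The 5 genes, the lists and the naming rule were chosen with earlier results of these data known, and family sums, shares and lengths were added after seeing the values. Named are the 5 genes, other genes described as the same enzyme, the 2 called genes with the smallest p-values per list and direction, and the 3 described genes nearest in profile. A gene that matched several lists was kept in the first.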

Additional observations from a re-analysis of the deposited data

How the results depend on the processing

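The 5 genes kept their direction and passed the test under every alternative run, 17 for bcsAI, celD and exgA and 16 for dcsA and NO17G00920, which have no value with whole counts only. Over these, log2 changes were -3.84 to -3.39 for bcsAI, -4.05 to -3.36 for dcsA, -2.06 to -1.67 for celD, -2.83 to -2.16 for NO17G00920 and -3.39 to -2.81 for exgA, the smallest with log2(FPKM + 1). The replicate block called 6590 genes against 6645, and changed no call of the 5 genes. Deviations of same-numbered libraries were correlated at 0.043, 0.037 and 0.033, so the numbers are not taken as pairs, although each library correlated best with its own number. Leaving out a library left 6271 to 6513 genes called. The 10 ratios between the genes kept their sign with 5 added to counts, with TPM and with each library left out.

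Scaling moved other counts. Genes higher in ND numbered 5075 with library totals alone, 5090 with log2(FPKM + 1) and 5059 with log2(FPKM + 0.1), against 3333, and lower genes 2149, 2031 and 2019, against 3312. In the same 3 settings the higher genes were 11, 11 and 11 for the same kind of enzyme (against 7), 11, 12 and 12 for nucleotide sugars (against 5, and 2 with whole counts only) and 11, 11 and 11 for other glycosidases (against 6). Lower nucleotide sugar genes were 21, 20 and 20 (against 34), and lower glycosidases 5 in both FPKM fits (against 8). In those settings bcsA NO11G01690 became 0.15, 0.15 and 0.15 and was called higher (-0.06 and not called with upper-quartile factors), exgA NO23G00160 0.0524, 0.062 and 0.0623 without a call, and celD NO16G03150 0.24, 0.27 and 0.27, a gained call (0.0354 and not called with upper-quartile factors). NO26G01190 was called higher in the same 3 settings, at 0.33, 0.31 and 0.32, but not at -0.0006 with RLE factors or -0.0657 to 0.0914 with a library left out. NO08G02410 lost its call in both FPKM fits. The call of eglA NO12G00250 was gained without NR replicate 1 (0.18, edgeR adjusted p = 0.0283), with upper-quartile factors and in those 3 settings. TPM sums divided by the scaling factors were 0.211, 0.600 and 0.856 of NR for cellulose synthases, endoglucanases and glucosidases, against 0.262, 0.747 and 1.07. By counts in place of TPM, the share of celD and NO17G00920 among endoglucanases differed by -14.95 percentage points (-11.9 by TPM) and that of exgA by -13.3 (-18.4 by TPM). The scaling factors were 1.11 to 1.12 in ND and 0.89 to 0.908 in NR, and the cause of the composition difference was not tested. Among the 5 genes exgA had the fewest counts in ND, at 48 to 61 per library.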
